A study of Homo sapiens with 6 samples.

Results

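The 6 genes OAS1, OAS2, OAS3, OASL, EIF2AK2 (the kinase PKR) and ADAR were taken by gene symbol from a deposited table of 60611 genes, and all 6 were found. Their RNA was measured in EndoC-BH5, an established human pancreatic beta-cell line recorded as wild type, in 3 libraries from cells given interferon gamma with interleukin 1b (cytokine libraries) and 3 from cells given vehicle (vehicle libraries). The cells are 1 line, and neither doses nor the length of exposure were stated in the sources used here. Replicates were described only as batches of the line. The p-values thus rest on the spread among 3 batches a group, part of which may be technical. That spread was small, with a common coefficient of variation beyond counting error of 3.47% in edgeR. Between replicates of a group, chi-square per gene was 1.37 to 2.46, where counting error alone would give about 1. Small changes could therefore be called. Because whole cultures were measured, fewer cells making an RNA and less of it per cell cannot be told apart.

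Cells make the OAS proteins, PKR and ADAR in larger amounts when interferon reaches them, and all of them meet double-stranded RNA, a sign of viral infection. OAS1, OAS2 and OAS3 are enzymes that, on binding such RNA, join ATP into the short messenger 2-5A. This messenger sets off the breakdown of RNA in the cell, which stops protein synthesis. OASL carries the same fold but makes no 2-5A. PKR phosphorylates the translation factor eIF2 alpha, and ADAR turns adenosine into inosine in double-stranded RNA, which keeps the cell's own RNA from setting off these sensors.

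OAS1, OAS3 and OAS2 lie side by side in this order on the plus strand of chromosome 12 in GRCh38 (GENCODE 29), at 112906777 to 112933222, 112938352 to 112973249 and 112978395 to 113011723. Gaps of 5.1 kb separate OAS1 from OAS3 and OAS3 from OAS2. OASL lies apart on chromosome 12 (121019111 to 121039242), EIF2AK2 on chromosome 2 (37099210 to 37157065) and ADAR on chromosome 1 (154582057 to 154628013), all transcribed from the minus strand. The counts are per gene, so the isoforms of a gene, such as the interferon-inducible and the constitutive form of ADAR, were not separated.

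The promoter windows of RefSeq (GRCh38.p14, 250 bases before to 50 after a transcript start) held OAS1, OAS3 and EIF2AK2 with 1 window each and ADAR with 3, and no window was used for OAS2 and OASL. Interferon acts on genes through the interferon-stimulated response element (ISRE), bound by a complex that holds STAT2 and IRF9 or by IRF1, and through the gamma-activated site (GAS). The 4 stretches of 30 bases below are shown because the run AAACGAAAC, printed in capitals, stood near the start in OAS1, OAS3 and EIF2AK2, and also farther upstream in OAS3, where the second capital run is a match to an NF-kappaB motif. They are written 5′ to 3′ on the strand of the gene.
OAS1: ccttctgaggAAACGAAACcaacagcagtc
OAS3 near the start: ccgggcgggaAAACGAAACcagaaatccga
OAS3 upstream: aagAAACGAAACtgaaagcaGGGAATTTCC
EIF2AK2: tccaaggggaAAACGAAACtgagaaccagc

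The stretches lie at chr12:112906936-112906965, chr12:112938454-112938483 and chr12:112938324-112938353 on the plus strand, and at chr2:37156965-37156994 on the minus strand. Counted from the RefSeq transcript start as base 0, the shared run began at -16 in OAS1, at -10 and -147 in OAS3 and at -4 in EIF2AK2. These starts are not the outer GENCODE ends given above. By those ends, every run but the upstream one of OAS3 lies inside its gene. This run was chosen after the sequences were seen. It was found on either strand in 39 of 35116 RefSeq windows, or 0.111%, and in 0.139% of genes with a window. The ISRE core, searched as 2 copies of GAAA with any 2 bases between them, overlaps the shared run in OAS3 and EIF2AK2. It was found in these 2 of the 4 genes, in 4.38% of all genes with a window and in 3.57% of all windows. The GAS letters TTCNNNGAA were found in OAS1, beginning at -168, in 9.38% of all genes with a window and in 7.66% of all windows. The NF-kappaB letters, searched as GGGA, any base and TTTCC, were found in OAS3, beginning at -130. They were in 0.678% of all genes with a window and in 0.558% of all windows. None of these motifs matched in the 3 windows of ADAR, and these matches are descriptions of letters, not of binding.

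**Figure D1:**
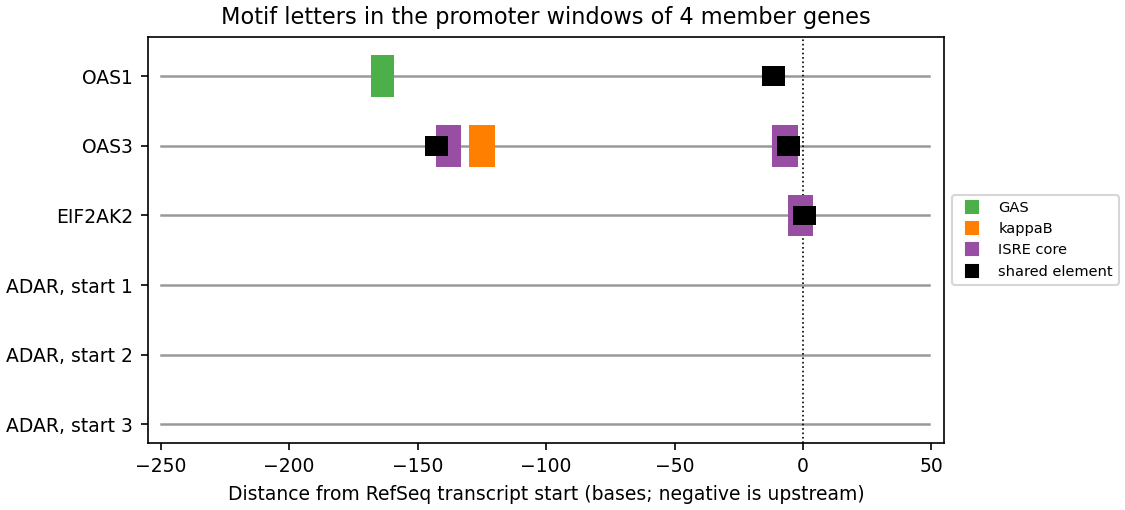
Motif matches (coloured boxes) in the RefSeq promoter windows of 4 member genes, by distance in bases from the transcript start; the black box is the 9-base run shared by OAS1, OAS3 and EIF2AK2. The shared run lies once in OAS1, beginning at -16, 2 times in OAS3, beginning at -147 and -10, and once across the start in EIF2AK2, and the 3 ADAR windows hold no match.

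All 6 genes rose with cytokines, each at least 2-fold, in an edgeR quasi-likelihood test adjusted over all genes. Among the 17847 genes that passed the count filter, 57.1% were called, 28.3% as higher and 28.8% as lower, and 5.97% were called higher by at least 2-fold. The median log2 change was 4.36 over the 6 genes and -0.019 over all tested genes. In each of the 6 genes the lowest cytokine library lay above the highest vehicle library, which was so in 30.3% of all tested genes, and the groups did not overlap in either direction in 61.1%. OAS2 and OASL passed the filter on low counts through their cytokine libraries, so a test of them was made only because they were high there. Both are counted in the 6 and in the median.

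OAS3 had 851, 831 and 814 CPM (counts set against library size, as edgeR's CPM after TMM correction for library composition) in the cytokine libraries, against 47.2, 56.1 and 54.5 CPM in the vehicle libraries. It encodes the largest of the 3 synthetases. Its log2 change was 3.96 with a standard error (SE) of 0.052, a 15.6-fold rise (edgeR, adjusted p = 2.0e-31).

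OAS1, the smallest synthetase, had 189.5, 188 and 186 CPM in the cytokine libraries, against 6.04, 7.26 and 7.02 CPM in the vehicle libraries. The 3 cytokine values lay close together and far above the vehicle values. Its log2 change was 4.76 with SE 0.070, a 27.2-fold rise (edgeR, adjusted p = 3.1e-30).

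OAS2, the neighbour of OAS3, had 7.72, 8.17 and 9.12 CPM in the cytokine libraries, from 116, 104 and 125.5 counts, and 0 counts in each vehicle library. Vehicle RNA was thus not detected at a depth that allows up to 0.0875 CPM over the group (a floor of 3 counts). OAS2 was at least 95.1-fold higher with cytokines against that floor, corrected for library size and composition. The edgeR fit, a separate estimate that does not use this floor, gave adjusted p = 2.8e-16.

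OASL had 4.86, 6.21 and 6.08 CPM in the cytokine libraries, from 73, 79 and 83.5 counts, against 1, 0 and 2 counts in vehicle replicates 1, 2 and 3. Its vehicle level therefore rested on 3 reads in all. The ratio of summed counts, corrected for library size and composition, was 64.9. An exact 95% counting interval for this ratio, from 21.9 to 317, covers counting error only. The edgeR fit, a separate estimate, gave adjusted p = 3.0e-14.

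EIF2AK2, which encodes PKR, had 149, 152 and 142 CPM in the cytokine libraries, against 48.5, 59.7 and 55.2 CPM in the vehicle libraries. Its log2 change was 1.42 with SE 0.056, a 2.68-fold rise (edgeR, adjusted p = 3.3e-19). In contrast to OAS2 and OASL, its RNA was well measured without cytokines.

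ADAR had 789, 784 and 764 CPM in the cytokine libraries, against 285, 291 and 290.2 CPM in the vehicle libraries. The vehicle libraries lay close together, with an SD of 3.30 CPM, and well below the cytokine libraries. Its log2 change was 1.43 with SE 0.039, a 2.7-fold rise (edgeR, adjusted p = 2.9e-23).

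**Figure D2:**
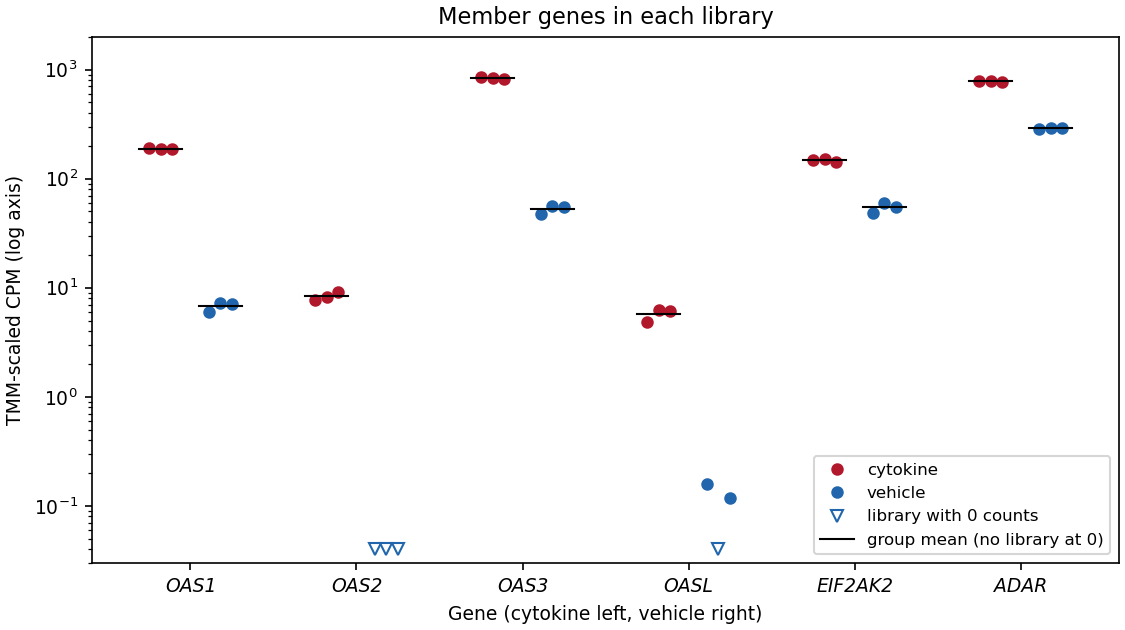
TMM-scaled CPM (log axis) of the 6 genes in each of 3 cytokine (red) and 3 vehicle (blue) libraries; bars are group means where no library is at 0, and open triangles mark libraries with 0 counts, drawn at the bottom of the axis. OAS2 has 0 counts in all 3 vehicle libraries and 7.72 to 9.12 CPM in the cytokine libraries, while ADAR has 764 to 789 CPM in cytokine libraries and 285 to 291 CPM in vehicle libraries.

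Annotated neighbours on the opposite strand were looked at because the sources used here do not state the strand setting of the counting. AC004551.1, an antisense gene that spans most or all of OAS1, OAS2 and OAS3, had at most 2 counts in any library. GPATCH11 overlaps the end of EIF2AK2 by 35 bases on the opposite strand, and it fell by 0.48 on the log2 scale (edgeR, adjusted p = 5.0e-06), the direction opposite to EIF2AK2.

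To compare genes with each other, counts were divided by the length of each gene's annotated exons in kb and scaled to the same sum in each library, as in TPM. With cytokines, OAS3 was the highest at 341 ± 9.66 (SD, n = 3), followed by ADAR at 272 ± 6.63, OAS1 at 128 ± 1.98 and EIF2AK2 at 46.4 ± 1.97 on this scale. OASL at 5.48 ± 0.697 and OAS2 at 4.49 ± 0.343 came last, and their libraries overlapped. In vehicle libraries ADAR was the highest at 116 ± 1.71, followed by OAS3 at 24.9 ± 2.25, EIF2AK2 at 19.7 ± 2.02 and OAS1 at 5.32 ± 0.548 on the same scale. OAS3 and EIF2AK2 stood close there, with a lowest OAS3 library of 22.3 and a highest EIF2AK2 library of 21.5. OAS3 thus stood above ADAR on this scale in every cytokine library and below it in every vehicle library. The exon length joins all annotated transcripts of a gene, 9691 bases for ADAR and 8251 for OAS3. Which transcripts were present was not measured, and other lengths would shift the levels of genes against each other. By CPM, OAS3 averaged 832 and ADAR 779 in cytokine libraries, and 52.6 and 289 in vehicle libraries.

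**Figure D3:**
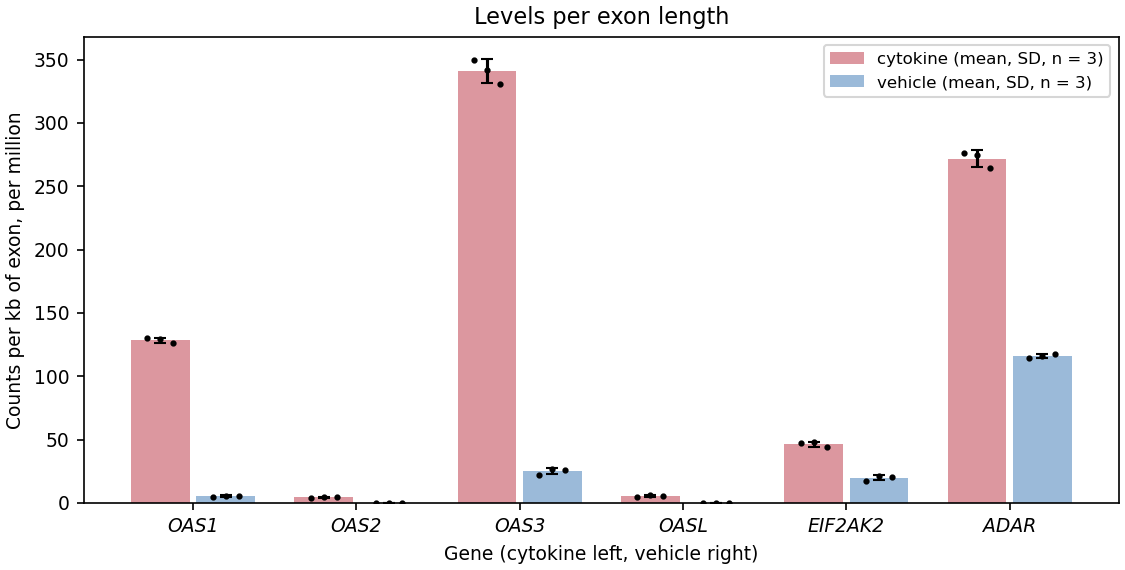
Counts per kb of annotated exon, scaled to one sum per library, for the 6 genes; bars are means with SD over 3 cytokine (red) and 3 vehicle (blue) libraries and dots are libraries. OAS3 reaches 341 with cytokines, above ADAR at 272, and in vehicle libraries ADAR at 116 is above OAS3 at 24.9.

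Among the 3 synthetases, OAS3 made up 71.9% ± 0.331 of their summed level per length in cytokine libraries and 82.4% ± 0.193 in vehicle libraries (SD, n = 3 each). OAS1 made up 27.1% ± 0.238 in cytokine libraries and 17.6% ± 0.193 in vehicle libraries. OAS2 made up 0.950% ± 0.0956 in cytokine libraries and was at 0 counts in vehicle libraries. The share of OAS1 was thus larger with cytokines and that of OAS3 smaller, with no overlap between the groups. The SDs cover the spread of libraries only. The sizes of the shares also rest on the joined exon lengths used, 4947 bases for OAS1 and 8251 for OAS3.

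Ratios between members within a library hardly depend on how libraries are scaled. The log2 ratio of OAS1 to OAS3 counts was -2.15 ± 0.019 in cytokine libraries and -2.95 ± 0.0046 in vehicle libraries, a difference of 0.80 (two-sided exact permutation p = 0.1, adjusted p = 0.115 over 15 pairs). With 3 libraries against 3, 0.1 is the smallest p this test can give. Ratios that hold OAS2 or OASL depend on the prior count, since their vehicle counts are 0 to 2.

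For EIF2AK2 and ADAR the ratio overlapped between the groups. Their log2 ratio was -2.40 ± 0.030 in cytokine libraries and -2.41 ± 0.136 in vehicle libraries, a difference of 0.010 (two-sided exact permutation p = 0.9). It spanned -2.43 to -2.37 in cytokine libraries, inside the span of -2.55 to -2.28 in vehicle libraries. OAS3 against ADAR differed by 2.55 and OAS1 against EIF2AK2 by 3.35 on the log2 scale, and neither pair overlapped (exact permutation p = 0.1 each).

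**Figure D4:**
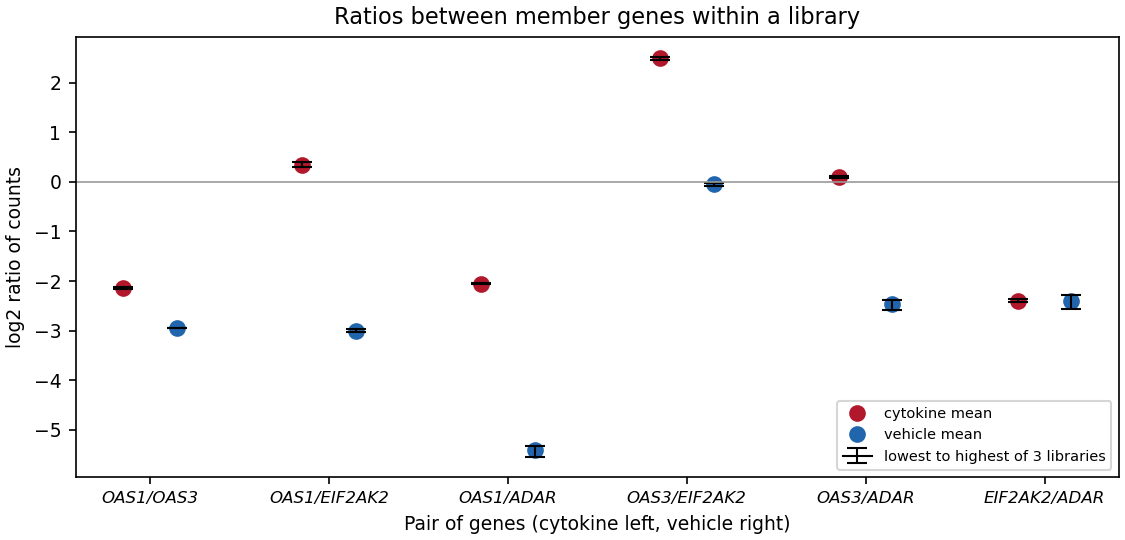
Log2 ratios of counts between pairs of member genes within a library, as the mean (dot) and the lowest to highest value (bar) over 3 cytokine (red) and 3 vehicle (blue) libraries. EIF2AK2/ADAR stays near -2.4 in both groups, while the other 5 pairs differ between the groups by 0.80 or more.

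Around the 2-5A messenger, 5 other genes were counted (ABCE1, AKAP7, PDE12, PELO and HBS1L), and these rose, each by less than 2-fold. Without the TMM correction (library size scaling) 1 of the 5 rose and 4 were not called. ABCE1, a ribosome recycling factor, had 59.3 ± 3.96 CPM in cytokine libraries and 47.5 ± 2.16 CPM in vehicle libraries (log2 change 0.33, edgeR, adjusted p = 3.0e-05). That call was lost under library size scaling (adjusted p = 0.0649). AKAP7, shown in mouse to degrade 2-5A, had 2.62 ± 0.470 CPM in cytokine libraries and 1.35 ± 0.204 CPM in vehicle libraries (log2 change 0.91, edgeR, adjusted p = 0.0013).

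Of the 3 sister kinases that also phosphorylate eIF2 alpha, 1 rose, 1 fell and 1 was not called, against a log2 change of 1.42 for EIF2AK2. Library size scaling gave 1 riser and 2 that fell, EIF2AK1 with EIF2AK4. EIF2AK3, the kinase PERK of the endoplasmic reticulum, rose to 72.5 ± 1.66 CPM in cytokine libraries, against 49.2 ± 2.21 CPM in vehicle libraries (log2 change 0.56, edgeR, adjusted p = 5.3e-10). EIF2AK4, the amino acid sensor GCN2, had 35.9 ± 1.02 CPM in cytokine libraries and 40.6 ± 4.71 CPM in vehicle libraries (log2 change -0.18, edgeR, adjusted p = 0.025). The EIF2AK4 call was lost without vehicle replicate 2 (adjusted p = 0.352), without cytokine replicate 2 (0.050, just past the threshold) or 3 (0.101) and with DESeq2 (0.204). EIF2AK1, the haem-regulated kinase, did not pass (log2 change -0.10, edgeR, adjusted p = 0.0586).

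Of 4 proteins known to bind PKR and change its activity, 2 rose, 1 fell and 1 was not called. Library size scaling gave 1 riser and 2 that fell. DNAJC3, which encodes the PKR inhibitor P58IPK, had 419 ± 6.44 CPM in cytokine libraries and 327 ± 27.9 CPM in vehicle libraries (log2 change 0.35, edgeR, adjusted p = 1.8e-07). NPM1, a nucleolar protein, fell to 339.6 ± 5.05 CPM in cytokine libraries, against 481 ± 6.60 CPM in vehicle libraries (log2 change -0.50, edgeR, adjusted p = 3.3e-12). PRKRA, which encodes the PKR activator PACT, had 50.1 ± 3.46 CPM in cytokine libraries and 45.2 ± 0.489 CPM in vehicle libraries (log2 change 0.14, edgeR, adjusted p = 0.046), a call lost in 8 of 14 alternatives, with a log2 change of -0.060 under library size scaling.

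Of the 8 eIF2 and eIF2B subunits, 4 rose and 4 were not called; library size scaling gave 2 risers and 2 that fell. EIF2S1, the subunit that PKR phosphorylates, had 55.3 ± 1.96 CPM in cytokine libraries and 42.3 ± 2.65 CPM in vehicle libraries (log2 change 0.39, edgeR, adjusted p = 2.8e-06). EIF2S2, the beta subunit, had 217 ± 3.12 CPM in cytokine libraries and 170.5 ± 5.02 CPM in vehicle libraries (log2 change 0.35, edgeR, adjusted p = 4.7e-08). Of the 8 listed genes for removing that phosphate and responding to it, 5 rose and 3 were not called. Here library size scaling gave 4 risers and 3 that fell. PPP1R15A, the inducible phosphatase subunit GADD34, had 271 ± 17.7 CPM in cytokine libraries and 82.4 ± 2.52 CPM in vehicle libraries (log2 change 1.72, edgeR, adjusted p = 1.9e-22). PPP1R15B, its constitutive counterpart, rose by 0.62 on the log2 scale (edgeR, adjusted p = 2.2e-10).

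Among the relatives of ADAR, 1 fell and 1 rose, and both changed by less than 2-fold. ADARB2, a brain-enriched relative without known deaminase activity, fell to 104 ± 4.61 CPM in cytokine libraries, against 152 ± 5.46 CPM in vehicle libraries (log2 change -0.54, edgeR, adjusted p = 6.3e-11). ADARB1, the second active editing enzyme, had 22.8 ± 0.769 CPM in cytokine libraries and 19.9 ± 2.00 CPM in vehicle libraries (log2 change 0.21, edgeR, adjusted p = 0.031). Its call was lost without vehicle replicate 1 (adjusted p = 0.0557) or 3 (0.314), without cytokine replicate 3 (0.0772), with DESeq2 (0.176) and under library size scaling (0.972). ADAD1 and ADAD2 never exceeded 6 counts and were not tested. ZBP1, which shares the Z-nucleic acid binding domain of ADAR, had 5, 4 and 3 counts in the cytokine libraries and 3, 1 and 4 counts in the vehicle libraries.

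Of 16 double-stranded RNA binding proteins and partners, among them PRKRA and ADARB1 again, 4 rose, 5 fell and 7 were not called, with log2 changes between -0.31 and 0.30. These are shares of 25% and 31.2%, near the 28.3% and 28.8% over all tested genes. Library size scaling gave 1 riser and 11 that fell. STAU2, an RNA transport protein, fell by 0.31 and DGCR8, the partner of Drosha in microRNA processing, by 0.20 on the log2 scale (edgeR, adjusted p = 0.00011 and 0.0028). SON, a splicing cofactor, rose by 0.30 (edgeR, adjusted p = 1.9e-07). Over the 59 genes counted in the pathway lists, 23 rose, 8 fell, 15 were not called and 13 were not tested, with a median log2 change of 0.13. Of the 46 tested, 50% rose and 17.4% fell. Under library size scaling 13 of them rose and 20 fell, while the 6 members rose under that scaling too.

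**Figure D5:**
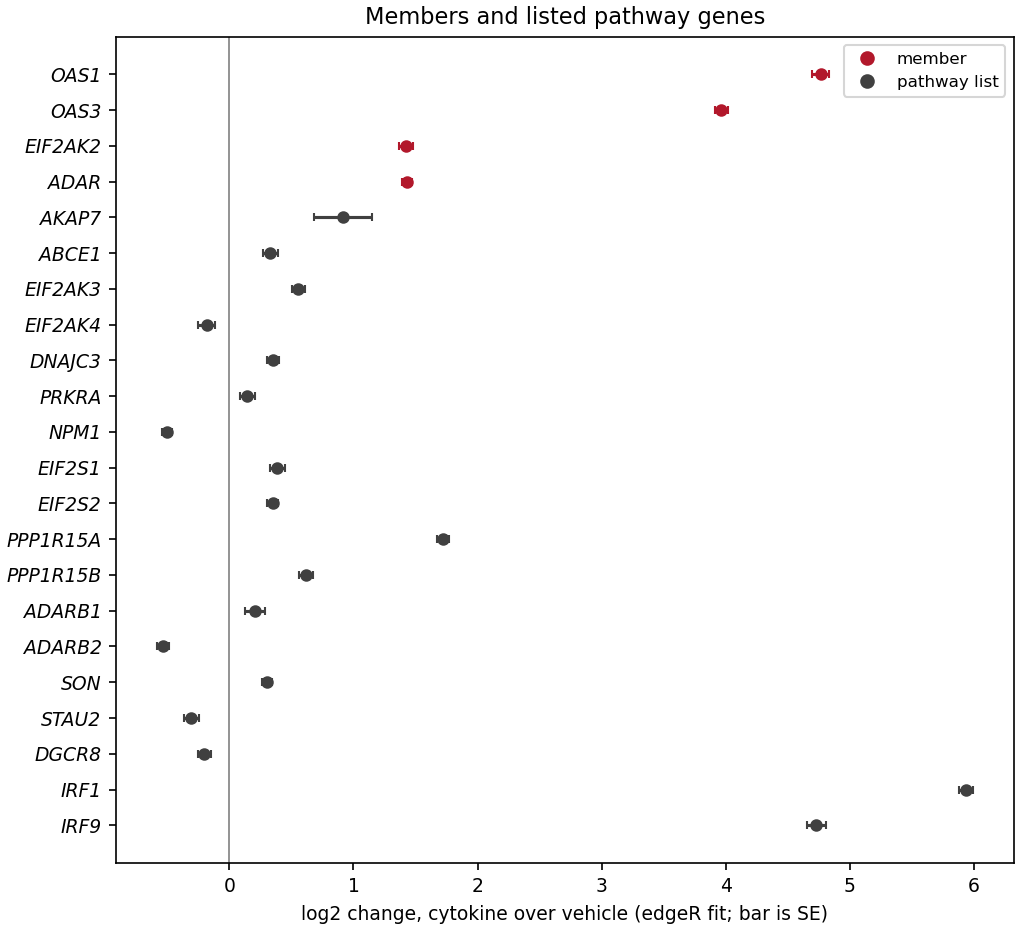
Log2 change of cytokine over vehicle libraries with its SE (edgeR) for 4 member genes (red) and the named genes of the pathway lists (grey); OAS2 and OASL are left out because their vehicle counts are 0 to 2. NPM1, ADARB2, STAU2, DGCR8 and EIF2AK4 lie below 0, and IRF1 at 5.94 lies above OAS1 at 4.76.

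The 3 transcription factors counted among those that act on the elements described above rose. IRF9 had 128 ± 3.25 CPM in cytokine libraries and 4.90 ± 0.301 CPM in vehicle libraries (log2 change 4.73 with SE 0.078, edgeR, adjusted p = 6.7e-29). STAT2, its partner in the ISRE-binding complex, rose by 2.36 on the log2 scale (edgeR, adjusted p = 6.6e-28). IRF1 had 1229 ± 28.3 CPM in cytokine libraries and 20.1 ± 0.772 CPM in vehicle libraries (log2 change 5.94, edgeR, adjusted p = 3.4e-35). The 10 listed interferon genes all missed the count filter, none with over 3 counts in a library. Of these, IFNB1 had 0, 0 and 1 counts in the cytokine libraries and 1, 1 and 3 counts in the vehicle libraries.

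Genes next to the members on the chromosome were read as well, up to 2 protein-coding genes on each side, and those named were chosen after their values were seen. Of 16 such neighbours, 14 were tested, of which 3 rose, 6 fell and 5 were not called, with log2 changes between -1.49 and 0.39. RPH3A, 7.9 kb before OAS1, had 0.608 CPM in cytokine libraries and 0.755 CPM in vehicle libraries (edgeR, adjusted p = 0.58). DTX1, a Notch regulator 45 kb after OAS2, fell to 50.1 CPM in cytokine libraries, against 92.4 CPM in vehicle libraries (log2 change -0.87, edgeR, adjusted p = 6.2e-14). CHRNB2, an acetylcholine receptor subunit gene 2 kb from ADAR, fell by 0.62 on the log2 scale (edgeR, adjusted p = 7.0e-11).

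The genes of most like pattern were found by the distance between centred log2 levels over the 6 libraries, the 3 nearest for each member. With 2 groups of close replicates, this distance largely follows the size of the log2 change. PSMB10 changed by 4.71 and OAS1 by 4.76, and RABGAP1L by 1.45 and ADAR by 1.43. Shared regulation was not tested. For OAS1 these were PSMB10 at a distance of 0.132, APOL6 at 0.200 and IFI35 at 0.229. For OAS3 they were PIK3AP1 at 0.183, DTX3L at 0.243 and PSTPIP2 at 0.268. For EIF2AK2 they were HIVEP3, RPS6KA5 and SGMS2, at 0.0974 to 0.107. For ADAR they were RABGAP1L at 0.0365, LINC02475 at 0.0625 and SERPINI1 at 0.0873. For OAS2 they were IL32, CFB and CD7, of which IL32 and CD7 also had 0 CPM in vehicle libraries, so that their distances rest on the prior count. For OASL they were BLNK, NUGGC and NNMT, at 0.753 to 0.853, farther than for any other member. OASL had 3 vehicle counts in all, and these genes had 0.0725 to 0.410 CPM in vehicle libraries. Their distances thus rest on counting error and the prior count too.

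The libraries held 13689972 to 16175364 counts in the cytokine group and 5871481 to 15894082 in the vehicle group. The 9 beta-cell markers summed to 31365 to 32074 CPM in cytokine libraries and 20942 to 22095 CPM in vehicle libraries, but 4 of them were higher and 5 lower in the same edgeR test. The sum was carried by CHGA, which averaged 18091 CPM in cytokine libraries and 11714 CPM in vehicle libraries, and by IAPP, at 8238 CPM in cytokine libraries and 3998 CPM in vehicle libraries. G6PC2, MAFA, SLC30A8, PDX1 and INS were lower, with log2 changes of -2.67, -1.89, -1.11, -0.54 and -0.14. The groups overlapped for INS, with 3371, 3605 and 3947 CPM in cytokine libraries and 3893, 4198 and 3946 CPM in vehicle libraries. Of 6 leukocyte markers, 5 had at most 10 counts in any library, and PTPRC, which encodes the leukocyte antigen CD45, had 3, 1 and 1 counts in cytokine libraries and 1, 0 and 4 in vehicle libraries. The summed leukocyte list was 21.2 to 23.0 CPM in cytokine libraries and 5.40 to 6.14 CPM in vehicle libraries, of which CD68 alone was 21.4 CPM in cytokine libraries and 5.14 CPM in vehicle libraries. Exocrine markers summed to 134 to 145 CPM in cytokine libraries and 156 to 172 CPM in vehicle libraries, nearly all of it KRT19 (log2 change -0.25, edgeR, adjusted p = 7.0e-05). Alpha and delta cell markers summed to 621 to 657 CPM in cytokine libraries and 600.3 to 671 CPM in vehicle libraries, and among them GCG fell by 0.79 and IRX2 rose by 0.62 on the log2 scale (edgeR, adjusted p = 1.2e-11 and 1.5e-07). Fibroblast and endothelial markers summed to at most 1.81 CPM in any library. The part of these marker differences in the members' changes was not tested.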

How the data were processed

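Total RNA of 6 EndoC-BH5 libraries was made into strand-specific libraries with an NEBNext Ultra II kit, per the labels' protocols. GRCh38 is the build, and cutadapt 2.10, STAR 2.7.5a and HTSeq 0.12.4 are among the tools listed, per the submitters' processing notes. The table deposited by the authors holds unnormalised estimated counts, a gene length and mean counts per group. The same deposited table gives their own comparison as log2 values (fold change and mean CPM), an F score, a p-value and an FDR, per the file headers. Of the values above 0, 67.3% to 73.5% per library lay within 0.005 of a whole number. Columns named NT were taken as vehicle, since the others carry the cytokine name.

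Counts were rounded, filtered with filterByExpr (17847 genes left), scaled with TMM and tested with edgeR 4.0.16 (R 4.3.3) by its quasi-likelihood test (robust, with group as the one term), adjusted by Benjamini-Hochberg over all tested genes and called at 0.05. The SE is the log2 change divided by the square root of F. The script was tested on simulated data. Levels per length used GENCODE 29 exons, and promoter sequences are from RefSeq (GRCh38.p14). Members and lists were chosen with earlier results of these data known, and 2 genes planned for the lists are not reported here and were left out of the list counts. From each list, the text names up to 2 risers and 2 fallers past the test with at least 1 CPM. PDE12, PELO, HBS1L, EIF2AK1, STAT2, GPATCH11, AC004551.1, RPH3A, DTX1 and CHRNB2 lie outside this rule. IFNB1, ADAD1, ADAD2, ZBP1, PTPRC, CD68 and the other markers lie outside it or were named for their counts. A planned comparison of the member proteins was not made, since no protein table was used here. Alternatives were DESeq2 1.42.0, other scalings and filters, counts left unrounded, the replicate number as a block and each library left out.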

Additional observations from a re-analysis of the deposited data

How the results depend on the processing

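All 6 member genes rose and passed the test under each of the 15 alternatives run. These were other scalings, filters and thresholds, DESeq2, unrounded counts, the replicate block and each library left out. The largest adjusted p was 1.3e-10, for OASL in edgeR without vehicle replicate 3. OASL and OAS2 passed the main count filter through their cytokine libraries, so their calls carry that limit. Log2 changes of OAS1 ranged from 4.56 to 4.81, OAS3 from 3.76 to 4.01, EIF2AK2 from 1.22 to 1.49 and ADAR from 1.23 to 1.46, the lowest always with scaling by library size alone. OAS2 ranged from 8.92 to 9.86 and OASL from 5.38 to 6.37, fitted values that depend on few or no vehicle counts. Scaling by library size alone moved the median of all tested genes to -0.22, against -0.019. It gave 2980 higher and 8779 lower genes in all, against 5057 and 5142, so that 25.3% of calls were higher, against 49.6%. Among the pathway genes it gave 13 higher and 20 lower, against 23 and 8, and it turned PRKRA to -0.060. DESeq2 gave 3356 lower genes in all and 5 lower pathway genes, and an adjusted p under 0.01 also gave 5 lower pathway genes. Testing against a fold of 1.5 (glmTreat) left 1395 higher and 950 lower genes in all. It left 4 higher and 0 lower pathway genes, with 0 lower at an unadjusted p under 0.05. A gene must exceed that fold beyond its error to pass. AKAP7 at 0.91 and PPP1R15B at 0.62 on the log2 scale missed it (glmTreat, adjusted p = 0.174 and 0.566). Of 18 named pathway genes 15 missed that test. Leaving out 1 library gave 5 to 7 lower pathway genes, the fewest without cytokine replicate 2. The cause of the other shifts was not tested. The log2 ratio of OAS1 to OASL turned from -0.82 to 0.34 with a prior count of 2, and their groups overlapped in either case. With lengths from the deposited table, the order of the 6 genes by level was the same in either group. Those lengths are close to the span of each gene with its introns, such as 27363 bases for OAS1 against 4947 of exons. The same order therefore does not check the exon lengths.

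Same-numbered libraries did not deviate together: correlations of deviations from group means over 11431 genes were 0.081, 0.042 and -0.091, so the numbers were not taken as pairs. With the replicate block, 5010 genes were higher and 5101 lower, and EIF2AK2 changed by 1.42 and ADAR by 1.43. None of the 6 members or the 18 named pathway genes changed its call with the block. At 5871481 to 16175364 counts per library, vehicle levels of OAS2 and OASL were at the limit of detection.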
